A study of Mus musculus with 8 samples.

Results

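Peaks of N6-methyladenosine (m6A) that span exon junctions were examined in mouse liver with and without hepatocyte Wtap. A peak was counted as junction-spanning when the deposited list divided it into 2 or more exonic blocks, and as single-block when it held 1. Of 34820 peaks in 2 lists, 5957 spanned a junction. The list of control livers, Wtap flox/flox (WtapFF in the plots), held 2273 junction-spanning peaks among 15635, a share of 14.5% (95% Wilson interval 14.0% to 15.1%). The list of livers without hepatocyte Wtap, Wtap-HKO (WtapHKO in the plots), held 3684 among 19185, a share of 19.2% (18.7% to 19.8%).

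m6A is placed on messenger RNA as it is transcribed, by a complex of METTL3 and METTL14 that needs WTAP to reach its targets. The mark is known to gather in long internal exons and around the stop codon. Exon junction complexes, which splicing leaves just upstream of each junction, keep the writer away from nearby sequence, so short internal exons carry little of it. A peak caller that joins the exons of a gene before it scans them can report a peak on both sides of a junction, with the intron left out as a gap between 2 blocks.

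The mice were C57BL/6 males of 8 weeks on normal chow. Control mice carried the floxed Wtap allele alone, and Wtap-HKO mice carried it with Alb-Cre, whose albumin promoter drives Cre in hepatocytes, so that the other cells of the liver keep Wtap. RNA was pooled from several mice for each replicate, precipitated with an m6A antibody from Synaptic Systems and sequenced beside its input, with 2 IP and 2 input libraries per genotype. The authors merged the replicates of a genotype into 1 list, so that no value has a replicate error and the depth of the libraries is unknown. The intervals below cover counting error only, treat peaks as independent although neighbours share a gene, and compare 2 lists rather than animals.

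The lists name genes and coordinates on GRCm38 but hold no letters. Bases were therefore read from RefSeq (GRCm38.p6) at annotated transcription starts, where the first 50 transcribed bases lay inside 1 block of a junction-spanning peak. The 30 bases below come from 3 such peaks of each list. These peaks were taken in order of fold enrichment, with a chromosome left out, among those that held GGAC in those first 50 bases. GGAC is the commonest core of an m6A site. Capitals mark GGAC, and each line is written in the sense of the RNA. In none of these stretches is GGAC followed by T, as in the GGACU motif that the paper names, and no methylated base was located.
Txnrd1: cgcgtccacgcgggaggtgcgGGACgccga
Rbbp6: gcggccgctatGGACccctgaccccgcggg
Brk1: ggccgccatggcgGGACaagaggatccggt
Gdf2: taagcagtcagcaGGACaatgtgggcctat
Fyb2: gctcctccgGGACaggcgaagtgactgcaa
Sord: cgccgggtccagcGGACacctcgaagcaag

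In the Wtap flox/flox list, the peak at Txnrd1, which encodes a thioredoxin reductase, had blocks of 113 and 97 nt and a fold enrichment of 26.3; its stretch lies at chr10:82859226-82859255 on the plus strand. The Rbbp6 stretch (chr7:122970564-122970593, plus strand) sits in the 227-nt second block of a peak with a fold enrichment of 7.58, at a start that lies downstream of the first block. The Brk1 stretch (chr6:113604772-113604801, plus strand) begins a peak of 125 and 53 nt with a fold enrichment of 7.28. All 3 peaks overlapped a Wtap-HKO peak.

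In the Wtap-HKO list, the peak at Gdf2, the gene of the liver growth factor BMP9, covered 2988 nt in blocks of 455 and 2533 nt with a fold enrichment of 63.0 (stretch at chr14:33941051-33941080, plus strand). The peak at Fyb2 joined 175 nt to 5 nt of the next exon, had a fold enrichment of 26.2 and overlapped no control peak (chr4:104913561-104913590, plus strand). The peak at Sord, which encodes sorbitol dehydrogenase, began with 150 nt and continued over 2 further blocks with a fold enrichment of 24.5, against 6.24 for the control peak that overlapped it (chr2:122234855-122234884, plus strand).

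GGAC in the first 50 bases was about as frequent under either kind of peak. On the sense strand it was present at 39 of 202 starts covered by junction-spanning control peaks (19.3%, 14.5% to 25.3%) and at 103 of 497 covered by junction-spanning Wtap-HKO peaks (20.7%, 17.4% to 24.5%). Starts covered by single-block peaks held it in 23.0% and 23.5%, and 18.9% of all 32851 starts in the table held it. The first transcribed base was A at 39.6% of the starts under junction-spanning control peaks and 36.6% of those under Wtap-HKO peaks, against 40.2% and 35.3% under single-block peaks and 34.4% over the table.

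The share of junction-spanning peaks was 4.66 percentage points higher in the Wtap-HKO list (Newcombe 95% interval 3.88 to 5.45). The higher share was not limited to genes that had a peak in 1 list. Among peaks of genes with a peak in both lists, 14.99% of 14535 control peaks and 19.4% of 15882 Wtap-HKO peaks spanned a junction. Genes with a peak in the Wtap-HKO list alone held 609 junction-spanning peaks among 3303, or 18.4%, and genes with a peak in the control list alone held 94 among 1100, or 8.55%.

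Junction-spanning peaks lay in 2033 of the 9020 genes with a control peak (22.5%) and in 3198 of the 10634 genes with a Wtap-HKO peak (30.1%). Most of these genes held a single such peak, 1817 of 2033 and 2774 of 3198. The genes with the most, picked out after the values were seen, were Myh9, Cgnl1 and Gnat1 in the control list with 4 each, and Myh9 in the Wtap-HKO list with 5. Myh9 encodes the heavy chain of non-muscle myosin, and all 5 of its Wtap-HKO peaks spanned a junction. In the Wtap-HKO list the macrophage scavenger receptor gene Cd163 had 4 junction-spanning peaks among its 6.

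The share differed between the lists at matched lengths too. In the control list it went from 9.45% of peaks up to 150 nt to 20.2% of peaks over 600 nt. In the Wtap-HKO list it was 12.2% in the shortest class, 20.8% already at 151 to 200 nt and 22.2% over 600 nt. The gap between the lists was widest at 151 to 200 nt, 13.2% against 20.8%, and the intervals of the 2 lists met only above 400 nt.

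**Figure D1:**
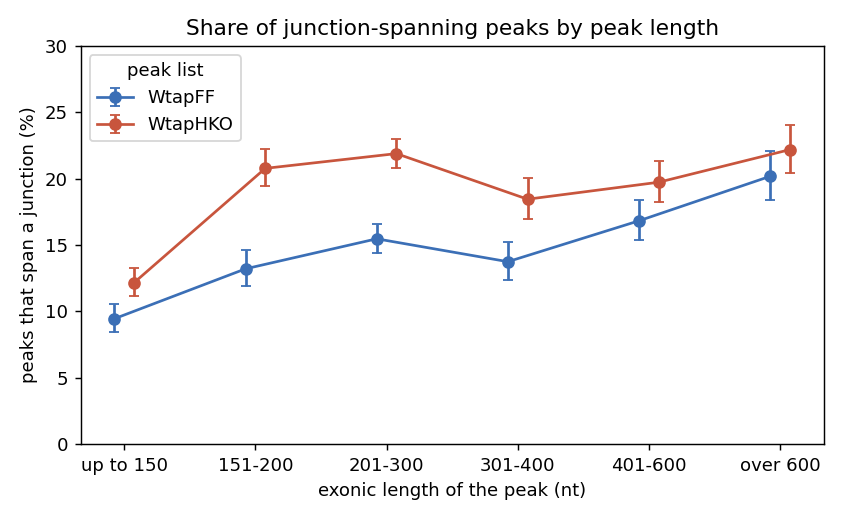
Percent of peaks that span a junction (vertical axis) in 6 classes of exonic length in nt (horizontal axis), for the control list (WtapFF) and the Wtap-HKO list (WtapHKO). Points are shares and bars 95% Wilson intervals; the Wtap-HKO share lies above the control share in each class, 20.8% against 13.2% at 151 to 200 nt, and the bars overlap only above 400 nt.

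Peaks that cross a single junction made up 1952 of the 2273 junction-spanning control peaks (85.9%) and 3041 of the 3684 Wtap-HKO peaks (82.5%). A further 263 and 500 had 3 blocks, and 44 and 99 had 4. The peak with the most exons in both lists was at Eif3a, the scaffold subunit of translation initiation factor eIF3, at chr19:60761804-60771056 on the minus strand in controls. Its 8 blocks ran, from the 5' side, 42, 154, 185, 89, 662, 202, 200 and 501 nt, with a fold enrichment of 4.84. In the Wtap-HKO list the outer blocks were 72 and 351 nt and the fold enrichment was 5.33. The peak crossed the same exons, so its 6 inner blocks, which are whole exons, had to be the same.

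The other peaks of most blocks differed between the lists in their blocks or in their fold enrichment. At Myh9 the control peak crossed 8 exons over 1201 nt (fold enrichment 3.33), where the Wtap-HKO list had 2 peaks with fold enrichments of 3.08 and 4.42. At Eif5b, which encodes a GTPase of ribosomal subunit joining, a peak of 7 blocks starting 120 nt from the 5' end of the gene had a fold enrichment of 5.84 in controls and 12.3 in Wtap-HKO. At Os9, which encodes a lectin of endoplasmic-reticulum quality control, the Wtap-HKO peak of 8 blocks had a fold enrichment of 5.8 and met control peaks of 1.53 and 3.87. At Ubxn1, which encodes a cofactor of the p97 ATPase, 8 blocks covering 623 nt in Wtap-HKO (3.19) met control peaks of 1.84 and 2.28.

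Junction-spanning peaks were uneven across the junction. The longest block held a median of 84.6% of the exonic length in controls and 79.2% in Wtap-HKO, and the shorter side of a peak had a median of 34 and 38 nt. Fewer than 30 nt lay on 1 side in 1043 of 2273 control peaks (45.9%) and 1561 of 3684 Wtap-HKO peaks (42.4%), and fewer than 10 nt in 18.1% and 18.2%. Peak lengths followed the caller's scanning step: 85.0% and 85.4% of all peaks had a length within 1 nt of a multiple of 30. How much of a short side reflects that step was not tested. With at least 30 nt required on each side, the shares were 9.02% and 12.8%, the difference between the lists remaining.

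The longer side differed between the lists. The 5' block had a median of 71 nt in controls (quartiles 25 and 153) and 97 nt in Wtap-HKO (40.8 and 176), and the 3' block 137 nt (44 and 350) and 87.5 nt (33 and 234). The 5' block was the longer of the outer blocks in 913 control peaks (40.2%, 38.2% to 42.2%) and 1864 Wtap-HKO peaks (50.6%, 49.0% to 52.2%). This went with where the peaks lay. Within 200 nt of the 5' end of the gene the 5' block was the long one in both lists (medians 124 and 142 nt, against 54 and 58 nt for the 3' block), and within 200 nt of the 3' end the 3' block was (407 and 425 nt, against 41 nt in both lists).

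**Figure D2:**
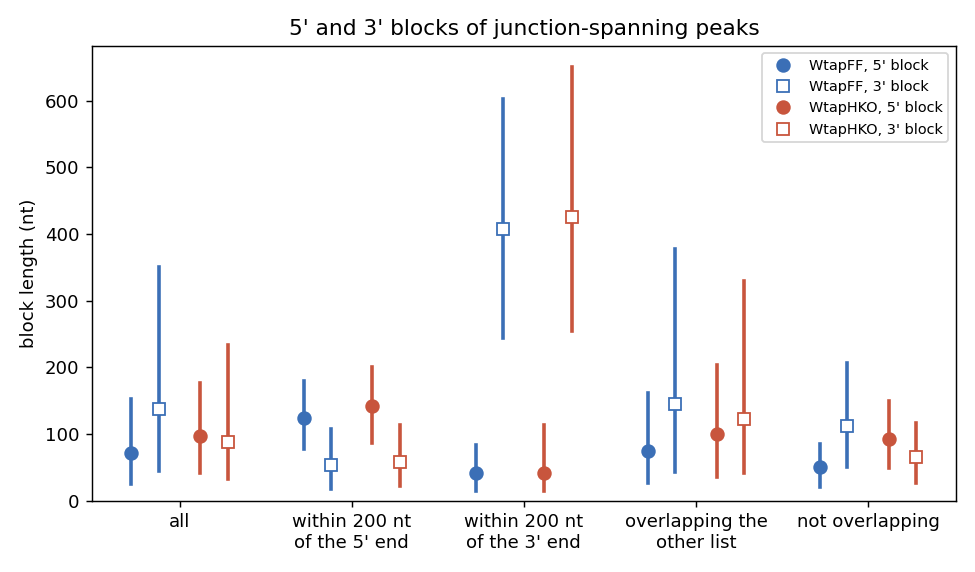
Length in nt (vertical axis) of the 5' block (filled circles) and 3' block (open squares) of junction-spanning peaks, by position and by overlap with the other list; blue is the control list (WtapFF) and red the Wtap-HKO list (WtapHKO). Points are medians and lines run between quartiles; the 3' blocks within 200 nt of the 3' end are the longest, with medians of 407 and 425 nt.

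The gaps between blocks had medians of 1196 nt in controls and 1138 nt in Wtap-HKO, and 31 of 2680 and 73 of 4545 were under 50 nt. The longest gap in the control list, 192301 nt, was at Cadm1, an immunoglobulin-family adhesion gene, where blocks of 123 and 58 nt had a fold enrichment of 2.44 against 12.8 in Wtap-HKO. The longest in the Wtap-HKO list, 874024 nt, was at the growth factor gene Nrg1, with blocks of 5 and 145 nt and a fold enrichment of 22.6. Nrg1 had no control peak.

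Junction-spanning peaks lay at the 5' end of genes more often than single-block peaks did. Of those that could be placed on a RefSeq gene, 525 of 2115 control peaks (24.8%) and 1235 of 3447 Wtap-HKO peaks (35.8%) had a block within 200 nt of the 5' end, against 8.47% and 14.2% of single-block peaks and 10.9% and 18.4% of all placed peaks. The difference from single-block peaks was 16.4 points in controls (14.5 to 18.3) and 21.6 points in Wtap-HKO (19.9 to 23.3). Between the lists, junction-spanning peaks were at the 5' end 11.01 points more often in Wtap-HKO (8.54 to 13.4). Read the other way, 33.7% of the 1560 control peaks at a 5' end and 38.0% of the 3249 Wtap-HKO peaks there spanned a junction, against 13.1% and 16.3% of the peaks between the ends.

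At the 3' end the order was turned. A block lay within 200 nt of it for 113 junction-spanning control peaks (5.34%) and 126 Wtap-HKO peaks (3.66%), against 11.1% and 9.58% of single-block peaks and 10.3% and 8.42% of all placed peaks. The differences from single-block peaks were -5.78 points (-6.83 to -4.60) and -5.92 points (-6.68 to -5.10), and within 500 nt of the end they were -9.62 and -9.83 points. The middle exonic base fell in the final 10% of the gene span for 27.0% of junction-spanning and 46.0% of single-block control peaks, and for 16.2% and 41.2% in Wtap-HKO. In the first 10% the shares were 25.6% against 12.9% in controls and 37.2% against 19.7% in Wtap-HKO. The span runs over introns, so that these positions are not positions along the mature RNA.

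**Figure D3:**
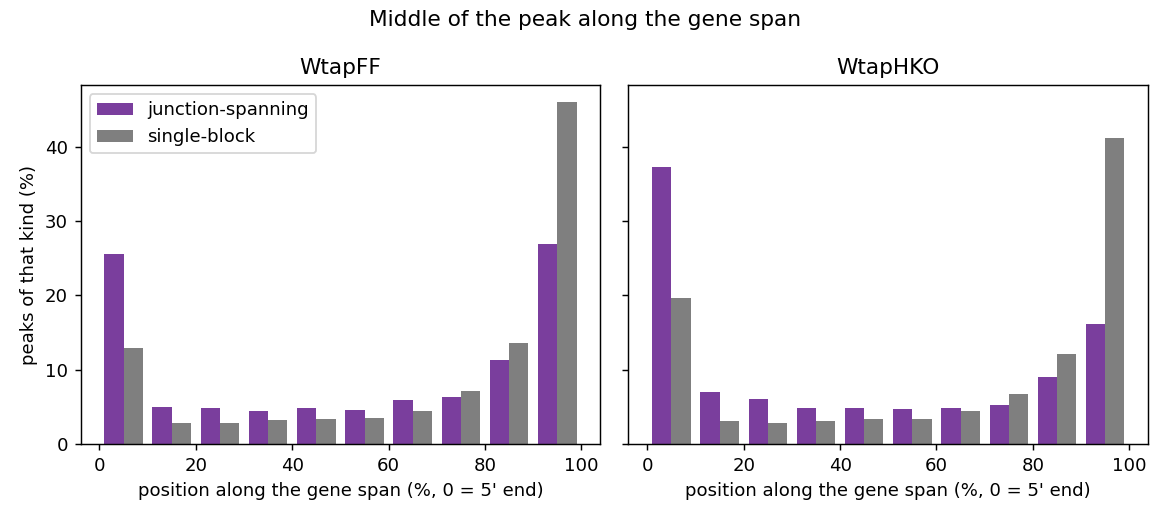
Percent of peaks of each kind (vertical axis) whose middle exonic base falls in each 10% of the gene span, from the 5' end at 0 to the 3' end at 100 (horizontal axis), in the control list (left, WtapFF) and the Wtap-HKO list (right, WtapHKO); purple bars are junction-spanning and grey bars single-block peaks. The first 10% holds 25.6% of junction-spanning control peaks and 37.2% of Wtap-HKO peaks, and the final 10% 46.0% and 41.2% of single-block peaks.

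Among the junction-spanning peaks picked for the highest fold enrichment within chosen groups of liver genes, some lay at the 5' end. At Ehhadh, a peroxisomal beta-oxidation enzyme gene, the control peak covered the 5' end with 138 nt and reached 72 nt into the next exon (fold enrichment 9.23), and the Wtap-HKO peak reached 12 nt (11.8). At Pygl, which encodes liver glycogen phosphorylase, only 8 nt lay before the gap and 232 nt after it (5.25), with 8 and 262 nt in Wtap-HKO (7.92). At Ambp, the alpha-1-microglobulin and bikunin gene, the 5' block was 141 nt in both lists, with fold enrichments of 5.56 and 10.3. The fold enrichment of all 3 peaks was higher in Wtap-HKO. As percentile ranks within each list, the values in controls and Wtap-HKO were 73.2 and 76.6 for Ehhadh. They were 47.4 and 62.7 for Pygl, and 50.5 and 72.6 for Ambp. Both peaks of each gene had the same 5' edge and crossed the same first gap, which fixes the length of the first block.

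Other peaks at the 5' end gave either order. At Jmjd1c, a histone demethylase gene, the peak of 265 and 6 nt had a fold enrichment of 36.9 in controls and 83.1 in Wtap-HKO. At Prrc2b the values were 40.1 and 20.8. At Srsf6, which encodes an SR splicing factor, blocks of 250 and 169 nt had a fold enrichment of 8.61, against 8.51 in Wtap-HKO, and at Hnrnpm blocks of 187 and 143 nt had 7.15, against 7.05.

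Over all genes, the share of a list that the other list overlapped depended on the genotype. Overlap meant at least 1 shared exonic base on the same strand. In controls, 2044 of 2273 junction-spanning peaks (89.9%, 88.6% to 91.1%) overlapped a Wtap-HKO peak, against 78.4% of single-block peaks and 80.1% of all control peaks, a difference of 11.5 points (10.02 to 12.9). In Wtap-HKO, 2313 of 3684 (62.8%, 61.2% to 64.3%) overlapped a control peak, against 65.2% of single-block peaks and 64.7% of all Wtap-HKO peaks, a difference of -2.37 points (-4.11 to -0.645). The Wtap-HKO difference was -1.28 points (-3.33 to 0.741) when 30 nt were required on each side of the junction, and -3.69 points in genes with a peak in both lists.

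The sign of the Wtap-HKO difference depended on position. At the 5' end 58.5% of junction-spanning Wtap-HKO peaks were overlapped, against 41.9% of single-block peaks (16.6 points, 13.04 to 20.01). At the 3' end the shares were 86.5% and 76.6% (9.94 points, 2.56 to 15.4), and between the ends 64.7% and 68.8% (-4.13 points, -6.37 to -1.93). The kinds were not matched for length, and at the 3' end their Wtap-HKO medians were 505 and 271 nt. The part of length in the 3' value was not tested. In controls the difference was 2.40 points at the 5' end (-0.373 to 4.88), 12.2 points at the 3' end and 11.4 points between the ends.

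Over all positions, the intervals of the difference excluded 0 up to 300 nt in controls and up to 200 nt in Wtap-HKO. Up to 150 nt, 71.7% of junction-spanning and 56.3% of single-block control peaks were overlapped, whereas in Wtap-HKO the shares were 18.5% (80 of 432) and 36.6%. At 151 to 200 nt the Wtap-HKO shares were 33.3% and 46.5%. Above 300 nt they held 0 in every length class of both lists. Single-block peaks in the same genes as junction-spanning ones gave the same order as the whole list: 90.1% of junction-spanning against 78.2% of single-block control peaks, and 63.3% against 70.9% in Wtap-HKO.

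**Figure D4:**
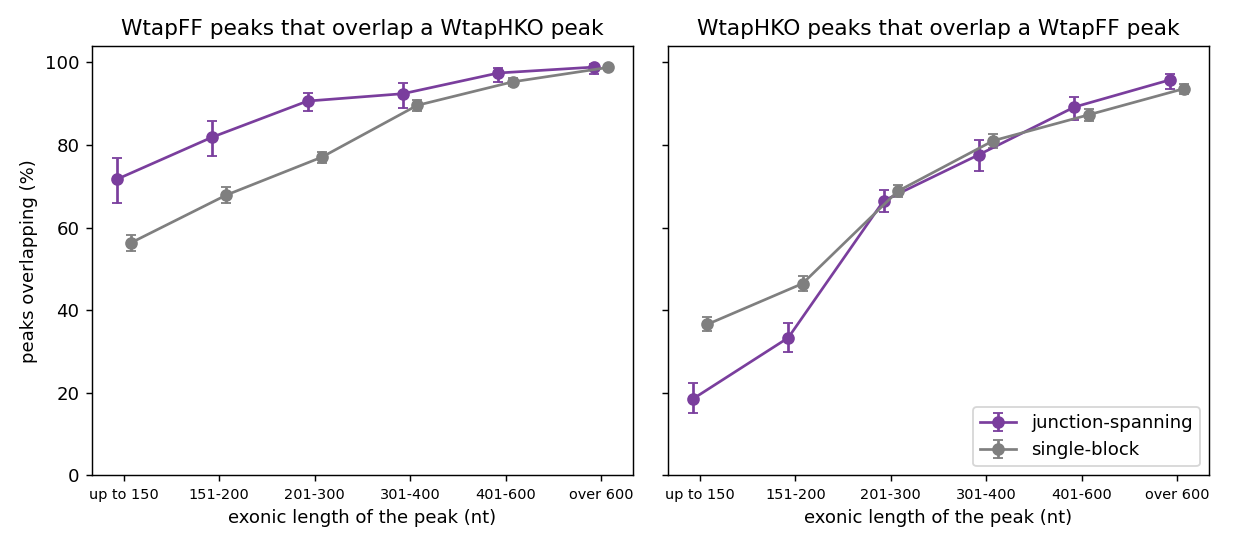
Percent of peaks that share at least 1 exonic base with a peak of the other list (vertical axis), by exonic length in nt (horizontal axis), for the control list (left, WtapFF) and the Wtap-HKO list (right, WtapHKO); purple is junction-spanning, grey single-block, bars are 95% Wilson intervals. Up to 200 nt the purple points lie above the grey ones on the left (71.7% and 56.3% in the shortest class) and below them on the right (18.5% and 36.6%).

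Position divided the short Wtap-HKO peaks further. Between the ends of the gene, 159 of 599 junction-spanning Wtap-HKO peaks up to 200 nt (26.5%) overlapped a control peak, against 45.6% of single-block peaks, a difference of -19.0 points (-22.8 to -15.02). At the 5' end the difference had the other sign, 28.7% of 414 against 19.2% (9.54 points, 4.65 to 14.7), and it was 10.9 points (5.31 to 16.4) for Wtap-HKO peaks of 201 to 300 nt there. Control peaks over 300 nt between the ends differed by 2.22 points (0.574 to 3.52). In controls, the shares overlapped among peaks up to 200 nt at the 5' end were 88.0% and 87.4% (0.527 points, -5.05 to 5.23).

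The overlapping peak often crossed the same junction. The control list held 2663 distinct junctions and the Wtap-HKO list 4524, of which 1912 were in both, 71.8% of the control junctions and 42.3% of the Wtap-HKO ones. A junction-spanning peak of the other list was met by 1619 control peaks (71.2%), single-block peaks alone by 425 (18.7%) and no peak by 229 (10.1%). For Wtap-HKO peaks the counts were 1622 (44.0%), 691 (18.8%) and 1371 (37.2%). Of the peaks that met none, 92 of 229 and 606 of 1371 lay in genes without any peak in the other list.

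Unmatched peaks were shorter and less enriched than matched ones. Their median length was 181 nt in both lists, against 300 and 329 nt, and their median fold enrichment was 3.95 in controls and 5.16 in Wtap-HKO, against 5.11 and 6.45. At the 5' end of the gene lay 40.4% of the unmatched and 33.1% of the matched junction-spanning Wtap-HKO peaks. In controls the order was turned, 15.2% of the unmatched and 25.8% of the matched.

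The unmatched peaks with the highest fold enrichment included some from transcripts without a symbol. In controls they were at Nfat5, which encodes a transcription factor of osmotic stress (125 and 56 nt, 36.0), Ston2 (12 and 169 nt, 34.3) and Ccdc66 (11 and 140 nt, 21.1). In Wtap-HKO they were at ENSMUSG00000097099 (17 and 343 nt, 79.5), Gm19426 (194 and 10 nt, 73.2) and Susd3 (46 and 433 nt, 70.5). None of these 3 Wtap-HKO genes had a control peak, and of the control genes Nfat5 alone had no Wtap-HKO peak.

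Fold enrichment over the whole control list was lower for junction-spanning peaks, with the order differing by position and, in Wtap-HKO, by length. Its median was 4.98 for junction-spanning and 5.63 for single-block control peaks, a ratio of 0.885 (0.841 to 0.929, from the intervals of the medians), and 5.96 against 5.92 in Wtap-HKO, a ratio of 1.01 (0.972 to 1.05). At the 5' end junction-spanning peaks were above single-block ones in both lists, 4.25 against 3.80 in controls and 6.88 against 5.95 in Wtap-HKO. At the 3' end they were also above, 5.38 against 5.06 and 8.19 against 5.44, and between the ends below, 5.19 against 5.97 and 5.40 against 5.91. Among peaks up to 150 nt the medians were 3.02 against 3.64 in controls and 4.16 against 4.05 in Wtap-HKO. The junction-spanning median was lower in every length class in controls, and lower only above 300 nt in Wtap-HKO. The kinds were not matched for length within a position. At the 3' end their median lengths were 472 and 299 nt in controls and 505 and 271 nt in Wtap-HKO. At the 5' end they were 210 and 181 nt, and 211 and 209 nt. Between the ends they were 330 and 270 nt, and 270.5 and 268 nt. The part of length in the order by position was not tested.

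The highest fold enrichments among junction-spanning control peaks were at 5 genes. Exoc3l2 (292 and 8 nt) had 97.5, Gon7, a subunit gene of the KEOPS complex (82 and 479 nt), 55.3, Safb2 (282 and 18 nt) 48.3, and the laminin gene Lamb3 (479 and 61 nt) and the ceramide synthase gene Cers2 (135, 94 and 11 nt) 44.8 each. The Wtap-HKO peaks that overlapped them had 25.9, 30.3, 13.1, 12.9 and 7.48. All 5 were lower in Wtap-HKO, which their choice by the control value favours.

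In Wtap-HKO the highest values were at Ptpn22, a lymphocyte tyrosine phosphatase gene (4 and 537 nt, 213), Igsf10 (852 and 1095 nt, 198), the sphingosine-1-phosphate receptor gene S1pr3 (187 and 1611 nt, 173), ENSMUSG00000085151 (5 and 324 nt, 149) and ENSMUSG00000032846 (20 and 881 nt, 125). The control peak under Ptpn22 was a single block of 181 nt with 13.6. Igsf10 and S1pr3 each met 3 control peaks. Both unnamed genes met a single-block control peak, with 21.1 and 48.7.

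Peaks that matched 1 to 1 between the lists allowed the same peak to be followed. Because the scaling of the libraries is not stated, values were compared as percentile ranks of fold enrichment within each list. Of 10499 pairs, 1437 spanned a junction in both lists, 358 in controls alone, 596 in Wtap-HKO alone and 8108 in neither. Pairs spanning in both crossed the same set of junctions in 1223 cases (85.1%).

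The rank of pairs that spanned a junction in both lists was higher in Wtap-HKO by a median of 7.97 points, in 899 of 1437 pairs. At the 5' end, as placed by the control peak, the median was 22.2 points higher, in 372 of 442 pairs, while between the ends it was 1.25 points higher, in 470 of 870, and at the 3' end the median was -3.89 points, with 24 of 54 pairs higher. Single-block pairs followed the same order of position, with medians of 19.8 points at the 5' end, -7.84 between the ends and -9.73 at the 3' end. Among pairs of the same kind in both lists, the 5' end alone thus had higher median ranks in Wtap-HKO for both kinds. Pairs at the 5' end that spanned a junction in controls alone had a median of -4.04 points (19 pairs). Those that spanned one in Wtap-HKO alone had 24.9 points (146 pairs).

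Peaks that spanned a junction in 1 list alone differed in length as well. Those spanning in controls alone had a median of 420.5 nt there and 299 nt in Wtap-HKO, with a median rank difference of -18.9 points. Those spanning in Wtap-HKO alone had 210 nt in controls and 360 nt in Wtap-HKO, with one of 10.2 points. The Wtap-HKO peak was the longer in 563 of these 596 pairs and in 22 of the other 358. A longer peak has more chance to reach a junction, and the part of length in these ranks was not tested.

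**Figure D5:**
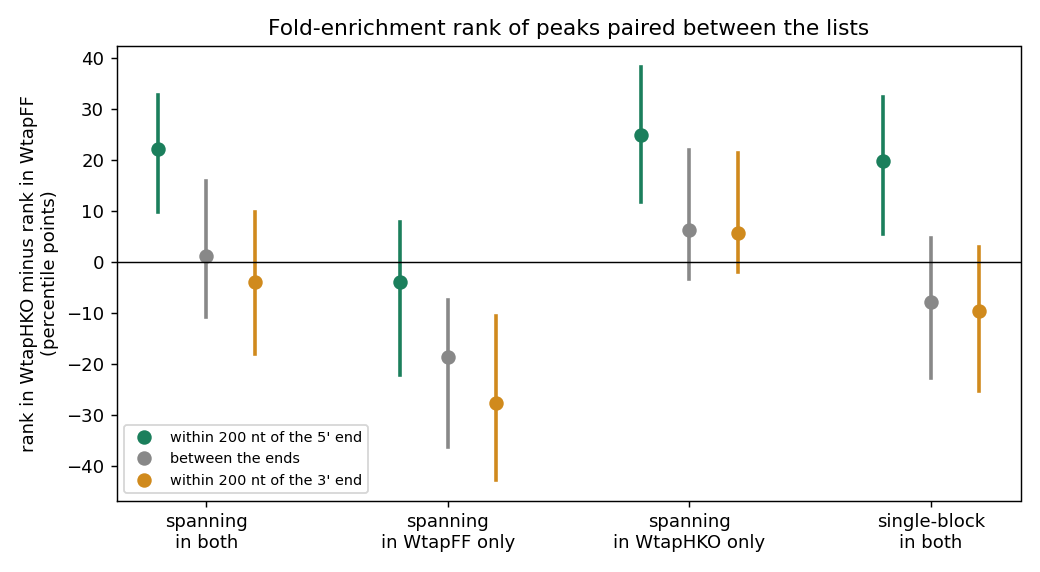
Percentile rank of fold enrichment in Wtap-HKO (WtapHKO) minus that in the control list (WtapFF), in points (vertical axis), for peaks matched 1 to 1, by which list the junction is spanned in (horizontal axis) and by position (colours). Points are medians and lines run between quartiles; pairs at the 5' end that span in both lists have a median of 22.2 points and single-block pairs there 19.8 points.

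The largest rank gains among pairs that spanned a junction in both lists were at Uba3, which encodes a subunit of the NEDD8-activating enzyme (fold enrichment 2.04 in controls and 19.7 in Wtap-HKO), Pdcd4, a translation inhibitor gene (2.3 and 17.0), and the heme oxygenase gene Hmox2 (2.22 and 14.5). The largest losses were at Pld4 (22.0 and 3.12), ENSMUSG00000047692 (22.8 and 3.94) and Coil, the gene of the Cajal body protein coilin (42.2 and 4.7). The gaps were the same in both lists at 5 of these 6 genes. At Hmox2 the peaks of the 2 lists crossed different junctions and shared one exon.

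At Wtap itself, on the minus strand of chromosome 17, the control list had 3 peaks and the Wtap-HKO list 3. The control peak at chr17:12967484-12972709 joined blocks of 25, 155 and 568 nt with a fold enrichment of 8.06, and its Wtap-HKO counterpart joined 60 and 509 nt with 4.47. The control peak at chr17:12975250-12980836 joined 15 nt to 225 nt with 8.78. Wtap-HKO had in its place a single block of 210 nt with 20.6, from the same 3' edge and with no part in the upstream exon. A single-block peak between them had 20.7 in controls and 20.5 in Wtap-HKO.

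Among 3 further genes that the study followed, Cd36, which encodes a fatty acid transporter, had a junction-spanning peak in Wtap-HKO alone. It joined 107 and 73 nt across a gap of 13939 nt, with a fold enrichment of 2.98, at percentile rank 15.9 of that list. The chemokine gene Ccl2 had a single-block Wtap-HKO peak of 91 nt with 5.42, and Igfbp1 had no peak in either list. The paper reports more Cd36 and Ccl2 mRNA in Wtap-HKO liver, and the part of RNA level in these peaks was not tested.

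Genes of RNA processing had junction-spanning shares above the 14.5% and 19.2% of the lists. Of the peaks of SR and hnRNP genes, 16 of 44 spanned a junction in controls (36.4%, 23.8% to 51.1%) and 22 of 49 in Wtap-HKO (44.9%). Genes of the exon junction complex and nonsense-mediated decay had 14 of 37 (37.8%, 24.1% to 53.9%) and 20 of 42 (47.6%), among them Upf2 (315 and 523 nt, fold enrichment 17.4 in controls and 9.13 in Wtap-HKO) and Casc3, a core subunit gene of the exon junction complex (229 and 100 nt, 6.49 and 9.33). The genes of m6A writers, readers and erasers had 10 of 35 and 12 of 42 (28.6% in each list; intervals 16.3% to 45.1% and 17.2% to 43.6%, of which the second holds 19.2%). Among these, Ythdf2 joined 923 and 243 nt with 10.7 in controls and 4.67 in Wtap-HKO, and Ythdf3 joined 1411 and 327 nt with 9.22 and 7.73. All 16, 14 and 10 junction-spanning control peaks of these 3 groups overlapped a Wtap-HKO peak, near the 89.9% of all junction-spanning control peaks.

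Zinc finger genes named Zfp, whose coding sequence sits mostly in one long final exon, were at the other end. Only 32 of their 617 control peaks (5.19%, 3.70% to 7.23%) and 48 of their 677 Wtap-HKO peaks (7.09%, 5.39% to 9.28%) spanned a junction. At Zfp668 blocks of 23 and 248 nt had a fold enrichment of 29.9 in controls, against 7.3 in Wtap-HKO, and at Zfp935 blocks of 4 and 234 nt had 20.6. Single-block Zfp peaks had a median fold enrichment of 8.34 in controls, against 6.04 for those that spanned a junction.

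Metabolic and secretory genes of hepatocytes varied around the shares of the lists. Plasma protein genes had 16 of 62 in controls (25.8%, 16.6% to 37.9%) and 23 of 69 in Wtap-HKO (33.3%), with Serpind1, the heparin cofactor gene, joining 839 nt to 1 nt (6.92). Fatty acid oxidation and ketogenesis genes had 8 of 59 (13.6%) and 12 of 43 (27.9%), of which 6 and 10 lay at the 5' end, where 24.8% and 35.8% of all placed junction-spanning peaks lay. At Acads, which encodes a short-chain acyl-CoA dehydrogenase, 39 and 708 nt had 5.65 in controls. Lipogenesis and VLDL secretion genes had 2 of 37 and 3 of 32, the control peaks being at Agpat2 (15 and 676 nt, 3.2) and Fasn, the fatty acid synthase gene (83 and 8 nt, 2.85). Gluconeogenesis and glucose handling genes had 4 of 27 and 7 of 32, with Foxo1, a transcription factor gene of fasting metabolism, joining 880 and 650 nt at 22.3, against 6.13 and 9.66 for the Wtap-HKO peaks that overlapped it.

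Cytochrome P450 genes had 4 of 47 (8.51%) and 7 of 47 (14.9%), and 3 and 6 of these lay at the 5' end, beside the same 24.8% and 35.8%. At Cyp4f14 the peak of 198 and 189 nt had 6.25 in controls and 14.8 in Wtap-HKO, and at Cyp3a13 the peak of 178 and 2 nt had 6.41 and 12. Nuclear receptor genes had 10 of 68 (14.7%) and 12 of 67 (17.9%), with Nr1h5 (3 and 535 nt) at 28.5 and 35.9 and Nr5a2, a regulator gene of bile acid synthesis (35 and 775 nt), at 26.9 and 6.13. Genes matched by name to cytosolic ribosomal proteins had 4 of 16 and 6 of 21, of which Rpl18 (87 and 304 nt) had 43.0 in controls. The other named member, Rps19bp1 (11 and 516 nt, 25.6), encodes a binding partner and is no ribosomal protein. The genes that the study listed as changed in splicing in these genotypes had 82 of 504 (16.3%, 13.3% to 19.8%) and 119 of 579 (20.6%, 17.5% to 24.0%), near the shares of all peaks.

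Markers of liver cells other than hepatocytes had more peaks, and more of them across a junction, in the Wtap-HKO list, in small counts to be read beside the 14.5% and 19.2% of the lists. The 8 markers of Kupffer cells and leukocytes had 6 peaks in controls, none of them across a junction (at 14.5% fewer than 1 would be), and 14 in Wtap-HKO, of which 9 spanned one, at 6 genes (Cd5l, Cd68, Clec4f, Csf1r, Ptprc and Vsig4). At Clec4f, a lectin gene of Kupffer cells, the control list had single blocks of 597 and 120 nt with fold enrichments of 20.1 and 4.49, and the Wtap-HKO list had 42 and 941 nt with 30.8 and 231 and 8 nt with 4.33. At Cd5l, a macrophage-secreted protein gene, a Wtap-HKO peak ran over 5 blocks with 5.63. The 8 markers of stellate cells and fibroblasts had 7 single-block control peaks, and 11 Wtap-HKO peaks of which 6 spanned a junction, among them Lrat (801 and 306 nt, 42.6), Dcn (181, 181 and 88 nt, 7.6) and Col1a1 (139 and 431 nt, 9.15).

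The collagen genes as a group had 3 junction-spanning peaks of 16 in controls (Col5a3, 3 blocks over 181 nt, 3.31, and Col18a1, 46, 36, 90 and 8 nt, 1.51) and 19 of 54 in Wtap-HKO (35.2%, 23.8% to 48.5%), of which 3 overlapped a control peak, against 62.8% of all junction-spanning Wtap-HKO peaks. The control interval of the collagens, 6.59% to 43.0%, holds their Wtap-HKO share. The 7 endothelial markers had 1 of 6 in controls and 5 of 13 in Wtap-HKO. The 8 hepatocyte markers had 3 of 7 and 4 of 8, with Alb (117, 58 and 4 nt, then 117, 58 and 33 nt) at 1.63 in controls and 2.97 in Wtap-HKO, and Hnf4a (6, 233 and 32 nt in both lists) at 5.12 and 11.5. Serpina1c and Cps1 had no peak in either list. In bulk liver, more cells of a type and more RNA per cell cannot be told apart, the lists hold no expression level, and the part of cell make-up in the junction-spanning share was not tested.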

How the data were processed

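Data were from m6ARIP-seq of liver, with 2 IP and 2 input libraries per genotype. The authors cleaned reads with fastp 0.19.11, aligned them with BWA 0.7.12, which does not split reads at junctions, to GRCm38 and used exomePeak to find peaks of IP against input (HOMER 4.9.1 is also named in their notes). Reads across a junction may therefore be clipped or lost. The fold enrichment is a deposited linear ratio, and the false discovery rate a deposited log10 score. Replicates were merged by the authors by a rule not given in the sources used here. The third list, which holds the authors' own fold changes and p-values between genotypes, was not used.

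Blocks, gaps and exonic lengths were read from the deposited lists with Python 3.11.15, pandas 2.3.3 and scipy 1.17.1. Peaks were placed by symbol on RefSeq gene spans on the same chromosome, within 5000 nt (91.7% of control and 91.8% of Wtap-HKO peaks), and distances were measured from the nearest block, with 200 nt as the limit of a gene end and 100 and 500 nt as alternatives. Shares have Wilson and differences Newcombe intervals at 95%. Fold-enrichment ratios have bounds from order-statistic intervals of the medians. No p-value was computed. The functions were tested on simulated peaks. The members and lists were chosen with earlier results of these data known. Named genes were those with the most blocks, the longest gap, the highest fold enrichment in a list, without overlap and per list of genes, and the largest rank changes, with Wtap, Igfbp1, Cd36 and Ccl2.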

Additional observations from a re-analysis of the deposited data

Results flagged for a closer look

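Overlap with the other list, junction-spanning minus single-block, had opposite signs in the 2 genotypes, 11.5 points in controls and -2.37 points in Wtap-HKO. Without matching for length, the Wtap-HKO value was negative between the ends of genes alone (-4.13 points). It was positive at the 5' end (16.6 points) and the 3' end (9.94 points). The difference between these values was not tested, and the lists differ in size, since 15635 control peaks were searched against 19185. In genes that held both kinds of peak, the shares overlapped were 90.1% and 78.2% in controls and 63.3% and 70.9% in Wtap-HKO.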

How the results depend on the processing

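No paired analysis was possible because the deposited lists merge the replicates of a genotype, and for the same reason no replicate could be left out. Of 119 recomputed values over 17 results, 101 kept their direction and interval call or stayed within the reported interval. A further 17 shares or ratios moved beyond it, 1 difference lost its call and no difference changed sign. The 101 include the values at a false discovery rate under 0.01, which equalled the reported ones for each of the 17 results. That limit therefore tells nothing about robustness. The Wtap-HKO ratio of median fold enrichment went from 1.01 to 0.990 at a fold enrichment of at least 2, inside its reported interval. Requiring 30 nt on each side of the junction gave junction-spanning shares of 9.02% and 12.8%, an overlap difference of -1.28 points in Wtap-HKO and 39.3% of Wtap-HKO junctions found in controls. In peaks of 200 to 400 nt the Wtap-HKO share was 20.8%, the overlaps 91.2% and 69.7% and the control ratio of median fold enrichment 0.821. A fold enrichment of at least 2 gave overlaps of 88.2% and 60.2%, with 40.7% of Wtap-HKO junctions found in controls. Genes with a peak in both lists gave overlaps of 93.7% and 75.1%, and junctions shared of 74.5% and 50.1%. Their Wtap-HKO ratio was 1.08 (1.03 to 1.13), an interval above 1 where the reported one held it. Sharing 50% of the exonic bases gave overlaps of 85.6% and 55.3%. Within 500 nt of the 3' end the differences from single-block peaks were -9.62 and -9.83 points, and within 100 nt -4.37 and -4.03 points. The cause of these shifts was not tested. Measuring from any annotated start of the gene, an alternative chosen after seeing the data, left the 3 results on 5' ends on their side of 0. Depth is unknown, so no smallest detectable enrichment can be given.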
